A study of Mus musculus with 91 samples.

Results

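Within the layer 5 (L5) pyramidal neurons of mouse primary visual cortex (V1) that belong to the Pyr←LP type, neurons with and without counts of *Fezf2* were compared. *Fezf2* (FEZ family zinc finger 2, chromosome 14, 12338992 to 12346803, GRCm38.p6) encodes a transcription factor. Of the 47 Pyr←LP neurons in a series of 91 single neurons, 3 were left out because they carried RNA of inhibitory neurons (the sum of log2(count + 1) over *Slc32a1*, *Gad1* and *Gad2* was above 7). Of the 44 neurons kept, 18 had at least 1 *Fezf2* count and 26 had 0. The other type, Pyr←ORBvl, contributed 27 neurons with and 12 without *Fezf2* after the same exclusion and is used only for reference. The classes were chosen by the *Fezf2* counts themselves, so the level of *Fezf2* is a description and was not tested.

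All neurons came from acute V1 slices of adult mice whose genotype the labels give as WT, and the labels name no treatment. Pyr←LP neurons are those assigned to input from the lateral posterior nucleus of the thalamus, and Pyr←ORBvl neurons those assigned to input from the ventrolateral orbitofrontal cortex; the study made the assignment from the slope of the hyperpolarization-activated current I(h). After recording, the soma was drawn into the patch pipette and its RNA was amplified and sequenced (Patch-seq). The mouse of each neuron was not given in the sources used here, but each title starts with a prefix that several neurons share, and the classes were compared within prefixes.

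*Fezf2* is a selector gene of deep-layer projection neurons. In development it favours the identity of neurons that project out of the forebrain (extratelencephalic, or PT, neurons) and acts with *Bcl11b* (also known as Ctip2). Other L5 neurons project within the cortex and to the striatum (intratelencephalic, or IT, neurons). Its transcript nevertheless remains in many mature L5 neurons of both kinds. *Slc30a3* encodes the zinc transporter of synaptic vesicles, *Etv1* an ETS-family transcription factor of L5 and *Deptor* an inhibitor of mTOR, and all of them are used as markers of L5 IT neurons.

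Among the 18 Fezf2-detected neurons the *Fezf2* level was lowest at 12.1 CPM (counts scaled to a total of 1000000 per neuron), with a median of 82.6 and a highest value of 1201 CPM. Their raw counts ran from 1 to 817 with a median of 28.5, and 2 neurons (C36 and C46) were included on a single count, the next lowest having 10. At the other side of the rule all 26 neurons had 0 counts. A count of 0 allows up to 3 counts of the total, which corresponded to between 2.28 and 1179 CPM with a median of 6.40 CPM, counting error only. In 5 of the 26 undetected neurons this limit lay above the median *Fezf2* level of the detected neurons, so that in these 5 a level of that size could have been missed.

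The exclusion left a gap. The 3 neurons left out had inhibitory sums of 12.4 (C6), 15.1 (C29) and 13.6 (C34), while the highest sums kept were 6.97 (C31) and 6.73 (C42), both in Fezf2-detected neurons. Of the 3, C6 had 211 *Fezf2* counts, C34 had 106 and C29 had 0.

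Both classes carried pan-neuronal and excitatory genes, the excitatory ones not in every neuron. *Snap25*, which encodes a synaptic membrane fusion protein, had counts in all 44 neurons. *Slc17a7*, the vesicular glutamate transporter 1, had counts in 77.8% of the Fezf2-detected and 69.2% of the undetected neurons. The other excitatory genes of the study's list were *Camk2a* (83.3% and 53.8%) and *Gria2* (100% and 92.3%). RNA of neighbouring cells was also present in both classes. The summed level of the 9 astrocyte markers ran from 5.51 to 4722 CPM with a median of 1115 CPM in the detected class, and from 2.08 to 10530 CPM with a median of 1239 CPM in the undetected class. The 8 microglial and vessel markers summed to a median of 781 CPM (29.6 to 14392) against 401 CPM (0 to 9870). The 8 oligodendrocyte and precursor markers summed to 1380 CPM (4.41 to 7277) against 1086 CPM (0 to 12967). The interneuron sum ran over the 3 genes of the exclusion and 10 other interneuron markers. Its median was 406 CPM (0 to 1422) in the detected class against 385 CPM (0 to 2543) in the undetected class. *Olig2*, *Mog*, *Cldn5* and *Erbb4*, defining markers of oligodendrocytes, vessels and interneurons, were at 0 in every neuron of both classes.

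The first difference between the classes was in how many genes a neuron yielded. Fezf2-detected neurons had between 2192 and 7151 genes with a count, with a median of 3539 and a mean of 4044 ± 1374 (SD, n = 18). Undetected neurons had between 1221 and 4624, with a median of 2713 and a mean of 2785 ± 1070 (SD, n = 26), so the classes overlapped between 2192 and 4624 genes. *Fezf2* itself was not counted in these numbers. The median of the total counts was 309958 in the detected class (33752 to 1948982) and 469282 in the undetected class (2545 to 1316128), while the means were 508386 and 501981.

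**Figure D1:**
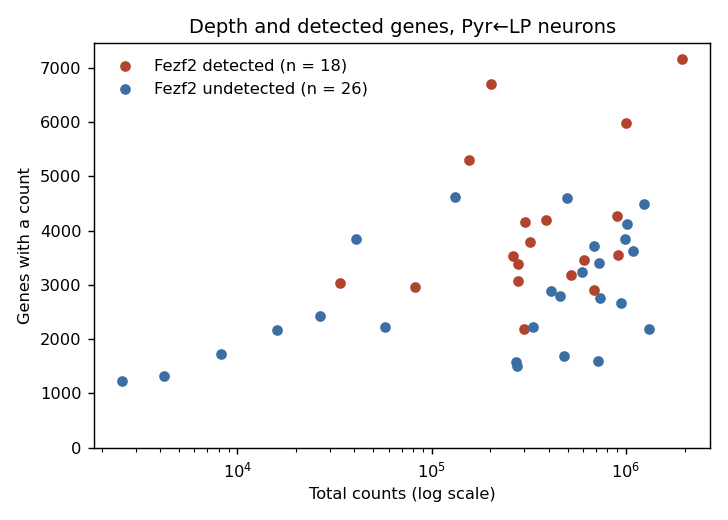
Each point is 1 Pyr←LP neuron, with its total counts on a log axis and its number of genes with a count on the vertical axis, coloured by Fezf2 class (18 detected, 26 undetected). The 5 shallowest neurons are all in the undetected class, and the 3 neurons with the most genes (up to 7151) are all in the detected class.

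Within the 10 prefixes that held both classes (13 detected and 22 undetected neurons), the detected neurons had on average 1509 more genes with a count (SD over prefixes 1845), with the difference positive in 9 of 10 prefixes. The range was from -1693 in prefix 831 to 4033 in prefix 830. An exact two-sided sign-flip permutation test over prefixes gave p = 0.0293, and 0.205 after Benjamini-Hochberg adjustment over the 7 single values tested, so the difference failed the correction. Without prefix 8-27, 830, 913 or 916 in turn the mean difference was 1252, 1229, 1294 or 1471 genes and the unadjusted exact permutation p became 0.0586 in each case. The largest difference was 1865 genes, without prefix 831 (unadjusted exact permutation p = 0.00391). With 10 prefixes the smallest p this test can give is 0.00195.

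The same order was seen after depth was made equal. Neurons holding 100000 counts or more were drawn down at random to exactly that depth, which kept 16 detected and 19 undetected neurons and left out 2 and 7. At this depth the detected neurons had a median of 3253 genes (1724 to 6322, mean 3679 ± 1262, SD, n = 16) and the undetected neurons 2523 (970 to 4479, mean 2545 ± 1065, SD, n = 19). Over the 8 prefixes that still held both classes the difference averaged 1101 genes (SD 1620) and was positive in 6 of 8, with an exact permutation p = 0.141 (adjusted p = 0.492), and it did not pass the test. Leaving out 1 prefix gave between 788 genes (without prefix 8-27, unadjusted exact permutation p = 0.281) and 1482 genes (without prefix 831, p = 0.0469). Total counts differed by 0.22 on the log10 scale within prefixes (SD 0.85, 7 of 10 positive, exact permutation p = 0.424, adjusted p = 0.742), by 0.06 without prefix 830 and by 0.42 without prefix 919. At a *Fezf2* threshold of 5 counts the difference in total counts was 0.46 (unadjusted exact permutation p = 0.0469).

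**Figure D2:**
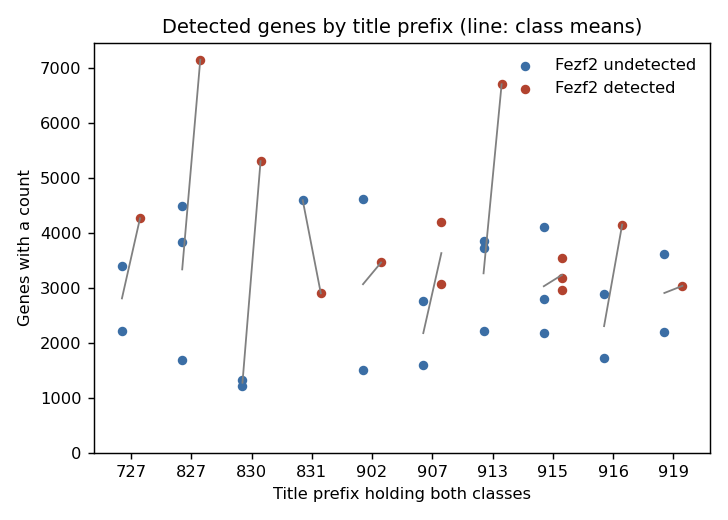
Genes with a count in each Pyr←LP neuron of the 10 title prefixes that held both classes. Grey lines join the class means within a prefix. The line rises from undetected to detected in 9 of 10 prefixes and falls in prefix 831.

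The summed markers of neighbouring cells did not pass the same test. On the log2(CPM + 1) scale the within-prefix difference, detected minus undetected, was -0.05 for astrocytes (SD 1.68), -0.01 for oligodendrocytes and precursors (SD 2.30), 1.38 for microglia and vessels (SD 3.22) and -0.21 for interneurons (SD 3.30). Adjusted p from the exact permutation test lay between 0.556 and 0.998. Without prefix 916 the microglial and vessel difference was 0.66, and without prefix 8-27 it was 0.90. The class medians of the microglial and vessel, oligodendrocyte and interneuron sums were higher in the detected class, as was the number of detected genes, while that of the astrocyte sum was lower, and their part in that difference was not tested.

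With more genes detected per neuron, most genes were found in a larger share of the Fezf2-detected class. Of the 4279 genes tested (at least 5 counts in at least 10 of the 44 neurons), 3668 (85.7%) had a count in a larger share of detected than of undetected neurons. The median difference was 15 percentage points, with quartiles of 5.56 and 23.9. After thinning to 100000 counts the median was 13.2 percentage points and 81.7% of the genes were still on that side. This shift over all genes is the background against which the share of any single gene has to be read.

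**Figure D3:**
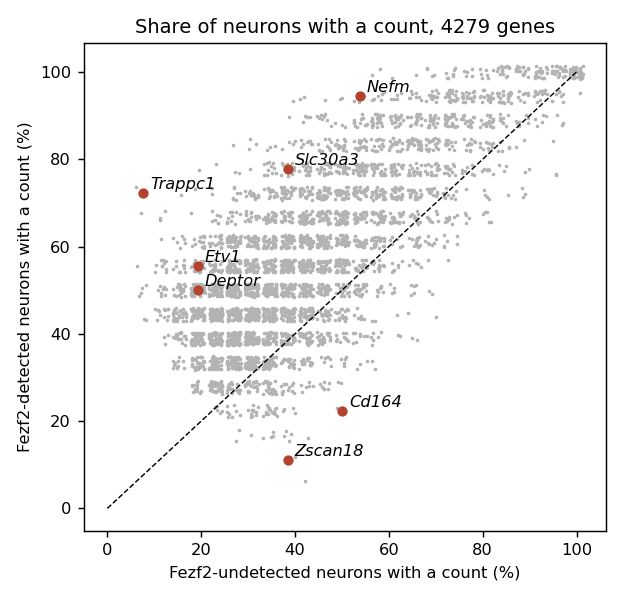
Share of Pyr←LP neurons with a count of each of the 4279 genes tested, in percent, for undetected (horizontal) and Fezf2-detected (vertical) neurons; points are moved by up to 1.5 points at random so that they do not cover each other, and the dashed line marks equal shares. Most genes (85.7%) lie above the line; *Slc30a3*, *Etv1* and *Deptor* lie above it with them, and *Cd164* and *Zscan18* below.

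*Slc30a3*, *Etv1* and *Deptor* were each found in a larger share of the Fezf2-detected neurons. *Slc30a3* (chromosome 5, 31086106 to 31108244) had a count in 14 of 18 detected neurons (77.8%, Wilson 95% interval 54.8 to 91.0%) and in 10 of 26 undetected neurons (38.5%, 22.4 to 57.5%). *Etv1* (chromosome 12, 38780082 to 38870483) had a count in 10 of 18 (55.6%, 33.7 to 75.4%) and 5 of 26 (19.2%, 8.51 to 37.9%). *Deptor* (chromosome 15, 55112317 to 55259273) had a count in 9 of 18 (50%, 29 to 71.0%) and 5 of 26 (19.2%, 8.51 to 37.9%). These intervals cover counting of neurons only. All 18 Fezf2-detected neurons had a count of at least 1 of these genes, 5 of them of all 3, whereas 14 of the 26 undetected neurons (53.8%) had none and 1 had all 3. After thinning, the shares were 75% and 42.1% for *Slc30a3* and 56.3% and 21.1% for both *Etv1* and *Deptor*.

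For *Slc30a3* and *Deptor* the level in the neurons that had a count did not follow the share. Over all detected neurons *Slc30a3* had a median of 39.9 CPM (0 to 1596), and over all undetected neurons a median of 0 CPM (0 to 823). Among only those neurons with a count the median was 83.6 CPM in the detected class and 352 CPM in the undetected class. For *Deptor* the medians among neurons with a count were 97.2 and 280 CPM, the highest being 1447 CPM in the detected and 1898 CPM in the undetected class, the latter in neuron C16, which had 4214 counts in all. For *Etv1* the order was the other way, 169 against 68.7 CPM, with highest values of 256 and 173 CPM. Both classes therefore held neurons at high and at 0 levels of each marker.

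**Figure D4:**
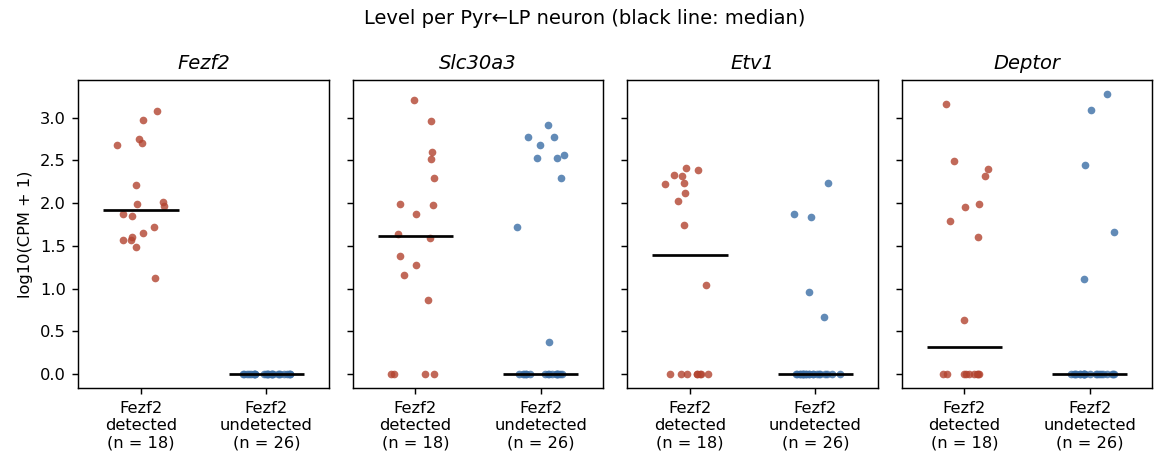
Level of *Fezf2*, *Slc30a3*, *Etv1* and *Deptor* in each of the 18 Fezf2-detected and 26 undetected Pyr←LP neurons, as log10(CPM + 1), with the class median as a black line. The undetected medians of all 3 markers are 0 CPM, while those of the detected class are 39.9, 32.1 and 1.64 CPM; neurons with and without each marker occur in both classes.

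In the test across all genes, counts were summed per prefix and class and fitted with edgeR's quasi-likelihood test with the prefix as a block. Under it *Etv1* had a log2 fold change, detected over undetected, of 4.65 (SE 2.20, unadjusted p = 0.0346, adjusted p = 0.9995), and its mean level was higher in the detected neurons of 8 of 10 prefixes, the other 2 having no count in either class. *Slc30a3* had a log2 fold change of -0.29 (SE 1.85, adjusted p = 0.9995), with the detected neurons higher in 4 prefixes and lower in 5. *Deptor* had -0.47 (SE 2.48, adjusted p = 0.9995), higher in 3 and lower in 4. The direction of *Slc30a3* and *Deptor* differed between fits: in limma on the mean log2(CPM + 1) per class and prefix the values were 1.5 and 1.00, on a scale on which the median of all genes lay at 1.04.

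No gene of the 4279 passed an adjusted p under 0.05 with a fold above 2 in this test (0%). At an unadjusted p under 0.05, 54 genes (1.26%) were higher and 41 (0.958%) lower in the Fezf2-detected neurons. DESeq2 on the same sums called 168 genes (3.93%), 111 higher and 57 lower. edgeR with each neuron as a replicate, the unit used by the study, called 1 gene (0.0234%), and DESeq2 on neurons called 3. For the 12 genes described next, the adjusted p by edgeR on sums was 0.9995.

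The 6 genes higher in detected neurons with the smallest p were *Trappc1*, *Sdha*, *Nsfl1c*, *Ap3s1*, *Tubb6* and *Sde2*. *Trappc1*, a subunit of the TRAPP vesicle tethering complex (chromosome 11, 69323986 to 69325793), had counts in 13 of 18 detected neurons and 2 of 26 undetected neurons, with a median of 44.3 CPM (0 to 468) against 0 CPM (0 to 196). Its log2 fold change was 7.11 (SE 2.26, edgeR adjusted p = 0.9995, DESeq2 adjusted p = 0.0155). After thinning to 100000 counts, 11 of 16 detected and 0 of 19 undetected neurons had a count. *Nsfl1c*, which encodes the p97 cofactor p47 (chromosome 2, 151494182 to 151511310), had counts in 11 of 18 and 4 of 26 neurons and was higher in the detected neurons of 10 of 10 prefixes (log2 fold change 6.62, SE 2.27, edgeR adjusted p = 0.9995, DESeq2 adjusted p = 0.000155).

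*Sdha*, the catalytic subunit of succinate dehydrogenase, had counts in 13 of 18 detected neurons and 8 of 26 undetected neurons, with a log2 fold change of 7.28 (SE 2.39) and DESeq2 adjusted p = 1.53e-05. *Tubb6*, a beta-tubulin, had 5.03 (SE 1.84, DESeq2 adjusted p = 0.00387) with counts in 11 and 9 neurons, and it reversed to -0.25 with total counts and detected genes as covariates. On sums without the block the log2 fold changes were 2.89 for *Sdha*, 2.11 for *Tubb6* and 3.33 for *Nsfl1c*, and with the covariates 2.47 for *Sdha*. *Ap3s1*, a subunit of the AP-3 adaptor complex (10 and 4 neurons, log2 fold change 6.35), and *Sde2*, a protein of genome maintenance and splicing (8 and 4 neurons, 6.87), were not called by DESeq2 on sums (adjusted p = 0.202 and 0.200). On sums without the block the log2 fold changes were 1.85 for *Ap3s1* and 0.53 for *Sde2*.

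The 6 genes lower in detected neurons with the smallest p were *Cd164*, *B4galnt1*, *Zscan18*, *Nmnat2*, *Lonp1* and *Malat1*. *Cd164*, which encodes the sialomucin endolyn (chromosome 10, 41519500 to 41531042), had counts in 4 of 18 detected neurons (22.2%) and 13 of 26 undetected neurons (50%), and the detected neurons were lower in 7 prefixes and higher in 1 (log2 fold change -7.01, SE 2.51, edgeR adjusted p = 0.9995, DESeq2 adjusted p = 0.0137). Its log2 fold change was -0.20 on sums without the block over all prefixes and -0.21 in edgeR with neurons as replicates and no block. On neurons it was -4.91 with a prefix block, -8.97 with total counts and detected genes as covariates, and -6.43 in DESeq2 (adjusted p = 0.00201). *Zscan18*, a zinc finger gene (chromosome 7, 12768090 to 12811666), had counts in 2 of 18 and 10 of 26 neurons and was lower in 7 prefixes and higher in 0, with a log2 fold change of -6.80 (SE 2.61), and was not called by DESeq2 on sums (adjusted p = 0.328); without the block its log2 fold change was -0.99. *B4galnt1*, an enzyme of ganglioside synthesis, had counts in 6 and 13 neurons and a log2 fold change of -7.39 (SE 2.65, DESeq2 adjusted p = 7.86e-06), which was -3.45 without the block.

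*Nmnat2*, an NAD-synthesizing enzyme of axons (7 and 11 neurons, -6.97), and *Lonp1*, a mitochondrial protease (3 and 8 neurons, -6.06), had DESeq2 adjusted p of 0.00228 and 0.355, and log2 fold changes of -3.30 and -2.00 without the block. *Malat1*, a nuclear noncoding RNA with counts in all 44 neurons, had the smallest standard error of these genes, with a log2 fold change of -0.87 (SE 0.35, unadjusted p = 0.0140, adjusted p = 0.9995 by edgeR's quasi-likelihood test and 0.657 by DESeq2 on sums). Its level had a median of 20314 CPM in the detected and 25868 CPM in the undetected class. With total counts and detected genes as covariates its log2 fold change reversed to 0.16. In all, 7 of these 12 genes were called by DESeq2 on sums and none by edgeR on the same sums; edgeR with neurons as replicates and a prefix block called *Trappc1*, *Sdha*, *Nsfl1c* and *Sde2* (adjusted p = 0.0472 for each), and with total counts and detected genes as covariates *Trappc1* (adjusted p = 0.00956) and *Cd164* (adjusted p = 0.0174). The 12 were taken for their small edgeR p on the same sums, so none of the other calls is independent of that choice. The fits on neurons also treat each neuron as a replicate, and with the prefix block the median log2 fold change of all genes was 0.91. Of all 4279 genes tested, DESeq2 called 3.93% on sums and 3 genes on neurons. On neurons, edgeR called 9 genes with the prefix block and 6 with the covariates.

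Of the 22 markers of extratelencephalic L5 neurons, 16 had a count in any of the 44 Pyr←LP neurons, 12 of them in a larger share of the Fezf2-detected and 4 in a larger share of the undetected class. The larger share in detected neurons was thus found for 75% of these genes, beside 74.6% of all 15817 genes with a count. The list's members *Nefm* and *Pcp4* passed the filter, neither with an unadjusted p under 0.05, and *Pcp4*, a calmodulin-binding protein, had counts in 94.4% of the detected and 80.8% of the undetected neurons. A Fezf2-detected neuron had counts of a median of 3 of the 22 genes (2 to 8) and an undetected neuron of 2 (1 to 7). The median difference of the shares was 5.56 percentage points over the 16 genes, beside 5.56 over all genes with a count and 15 over the genes tested. *Bcl11b*, *Pou3f1*, *Bcl6* and *Cdh13* were the 4 with the larger share in undetected neurons. *Bcl11b*, the partner of *Fezf2* in subcerebral neurons, had counts in 2 of 18 detected (11.1%) and 3 of 26 undetected neurons (11.5%). *Pou3f1*, a POU-domain factor of L5 extratelencephalic neurons, had counts in 2 of 18 (11.1%) and 5 of 26 (19.2%).

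Among the 12 genes with the larger share in the detected class, *Crym*, a thyroid hormone binding protein, had counts in 7 of 18 detected and 2 of 26 undetected neurons, and the LIM-domain binding factor *Ldb2* in 7 of 18 and 4 of 26. The neurofilament gene *Nefm* had counts in 17 of 18 (94.4%) and 14 of 26 neurons (53.8%), with medians of 153 and 38.2 CPM. Of the 13 corticofugal transcription factors, 6 had a larger share in the detected and 7 in the undetected class. The 6 were 46.2% of the list, beside 74.6% of all genes with a count. The median difference was -0.43 percentage points, beside 5.56 over all genes with a count. The filter was passed by 2 of these factors, with none at an unadjusted p under 0.05.

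Of the 12 genes on the IT list, which holds *Slc30a3*, *Etv1* and *Deptor*, 11 had a count and 8 of these had the larger share in the detected class (72.7%, beside 74.6% of all genes with a count; median difference 14.1 percentage points, beside 5.56 over all genes with a count and 15 over the genes tested). Among the 6 that passed the filter *Etv1* alone had an unadjusted p under 0.05, and the median log2 fold change was -0.51 beside 0.03 over all genes tested. *Hsd11b1*, which encodes a glucocorticoid-activating enzyme, had counts in 7 of 18 and 6 of 26 neurons. Of the callosal transcription factors 6 of 9 had the larger share in the detected class (66.7%, beside 74.6% of all genes with a count). The others, *Cux1*, *Pou3f2* and *Pou3f3*, had it in the undetected class.

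Of the 7 near-projecting markers 4 had a count. The members that passed the filter, *Sla2* (38.9% of detected and 38.5% of undetected neurons) and *Cpne7* (50% and 46.2%), had a median log2 fold change of -1.54, neither with an unadjusted p under 0.05. *Tshz2*, a teashirt zinc finger gene that did not pass the filter, had counts in 5 of 18 detected neurons (27.8%) and 1 of 26 undetected neurons (3.85%). The L6 list had 6 of 9 genes with a count and none that passed the filter. Of the 9 genes of L2/3 and L4, *Rorb*, a nuclear receptor, alone passed the filter, with counts in 9 of 18 (50%) and 12 of 26 neurons (46.2%).

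Genes of excitability and of recent activity were counted in the same way. Of the 9 channel genes, 8 had a count, 7 with the larger share in the detected class (87.5%, beside 74.6% of all genes with a count), and none of the 3 that passed the filter had an unadjusted p under 0.05. The potassium channel *Kcnk2* had counts in 77.8% of the detected and 53.8% of the undetected neurons, and *Kcna6* in 44.4% and 34.6%. *Kcnt1* and *Cacna1h* had counts in 2 and 1 of the detected and in 1 and 2 of the undetected neurons. Of the 9 activity and stress genes 6 passed the filter, 3 with a log2 fold change above 0 and 3 below, none at an unadjusted p under 0.05. *Fos* and *Egr1*, immediate early genes, had counts in 94.4% and 100% of the detected and 92.3% and 96.2% of the undetected neurons.

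The genes that the study found to differ between the types, which it chose on these same samples, were counted within Pyr←LP. Of the 18 genes higher in Pyr←LP neurons, 15 passed the filter, 3 with a log2 fold change above 0 and 12 below (median -0.91, beside 0.03 over all genes tested), and 16 of the 18 had the larger share in the Fezf2-detected class (88.9%, beside 74.6% of all genes with a count and 85.7% of those tested). Of the 49 genes higher in Pyr←ORBvl neurons, 1 passed the filter, and 30 of the 46 with a count had the larger share in the Fezf2-detected class (65.2%, beside 74.6% of all genes with a count). No gene of either list had an unadjusted p under 0.05.

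The marker shares of both classes were set beside those of the other type. *Slc30a3* had counts in 22.2% of the Fezf2-detected and 8.33% of the undetected Pyr←ORBvl neurons, and *Deptor* in 18.5% and 0%, both below the 77.8% and 50% of the Fezf2-detected Pyr←LP neurons. *Pou3f1* had counts in 63.0% and 25%, *Bcl11b* in 40.7% and 33.3%, and *Parm1* in 55.6% and 33.3% of these classes, against 11.1% for each of them in Fezf2-detected Pyr←LP neurons. *Etv1* had counts in 66.7% and 33.3%, the first of these above the 55.6% of the Fezf2-detected Pyr←LP neurons. These shares between types are a description, since the lists were known to separate the types.

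**Figure D5:**
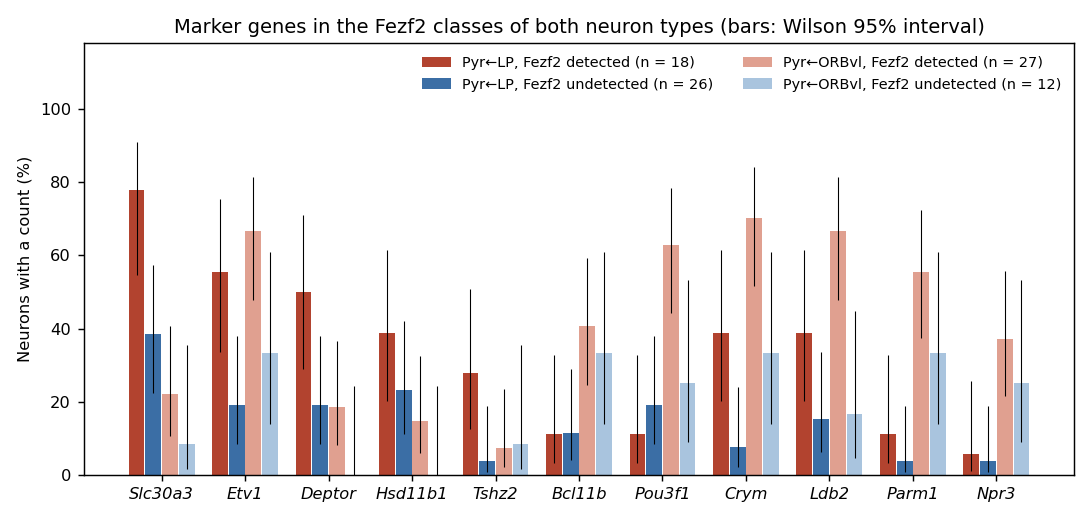
Share of neurons with a count of 11 marker genes in the Fezf2-detected and undetected classes of Pyr←LP (18 and 26 neurons) and Pyr←ORBvl (27 and 12 neurons), with Wilson 95% intervals. *Slc30a3* and *Deptor* are highest in Fezf2-detected Pyr←LP neurons (77.8% and 50%), while *Pou3f1*, *Crym*, *Ldb2* and *Parm1* are highest in Fezf2-detected Pyr←ORBvl neurons. *Etv1* is also highest in Fezf2-detected Pyr←ORBvl neurons (66.7%, against 55.6% in Fezf2-detected Pyr←LP neurons).

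The numbers of detected genes were set beside those of the other type. Fezf2-detected Pyr←ORBvl neurons had a mean of 4138 ± 1037 genes (SD, n = 27) and undetected ones 2972 ± 1450 (SD, n = 12), with a within-prefix difference of 1339 (SD 1556) over 8 prefixes, 6 of them positive, which was not tested on its own. In the 5 prefixes that gave the difference in both types, it was larger in Pyr←LP in 4, by 776 genes on average over the 5 (SD 1512). An exact sign-flip permutation test over these 5 prefixes gave p = 0.375, and cannot give less than 0.0625, so that a difference between the types was not shown.

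Across genes, the difference of the Fezf2 contrast between the types was tested in 1 fit with an interaction term on the sums. Of 7541 genes 1 was called (0.0133%), *Pigt*, a subunit of the GPI transamidase (chromosome 2, 164497090 to 164508301). In Pyr←LP it had counts in 0 of 18 Fezf2-detected neurons (Wilson interval up to 17.6%) and 6 of 26 undetected neurons (up to 482 CPM), and in Pyr←ORBvl in 6 of 27 (22.2%) and 0 of 12 neurons. With 2 of the 4 classes at 0, its fitted log2 difference of -16.58 (SE 3.55, edgeR adjusted p = 0.0284) depends on the prior count and is no estimate of size. The median of that difference over all genes was -1.44.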

How the data were processed

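Single L5 pyramidal neurons were collected through the patch pipette, amplified with a Smart-seq2-based kit, tagmented and sequenced. The authors aligned reads with STAR 2.5.3 to GRCm38 with RefSeq genes, removed PCR duplicates, kept unique reads and deposited counts per gene; no molecular identifiers were used. The FPKM values they deposited beside them (method not given in the sources used here) served only for an alternative form of the GABAergic exclusion, after rescaling to TPM. Here CPM is a count divided by the neuron's total. The 44 Pyr←LP neurons kept had between 2545 and 1948982 counts (median 399786), which limits low genes to a few counts per neuron.

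Neurons of 1 mouse are not independent and the mouse is not given in the sources used here, so counts were summed per title prefix (hyphens removed) and Fezf2 class over the 10 prefixes with both classes and tested with edgeR 4.0.16 (quasi-likelihood, TMM, prefix block, R 4.3.3). What the prefix stands for is not stated, so p-values measure the spread between prefixes, which may be technical. Neurons of the 6 other prefixes (5 detected, 4 undetected) enter the descriptions only. Genes needed 5 counts in 10 neurons, and *Fezf2* was left out of the tests. Calls required a Benjamini-Hochberg adjusted p under 0.05 and a fold above 2. Single values were tested by exact two-sided sign flips over prefixes (scipy 1.17.1). Marker lists and named genes (list members that describe their list, the channel genes the study names, and the 6 genes with the smallest p in each direction) were set by rule. The members and lists were chosen with earlier results of these data known. *Pigt* was named after its value was seen. Alternatives were DESeq2 1.42.0, limma 3.58.1 on log2(CPM + 1) and log2(CPM + 0.1), neurons as replicates, other scalings, filters and Fezf2 thresholds, and leaving out each prefix. The fits were tested on simulated data: with low dispersion edgeR recovered the genes changed by the larger fold and part of those changed by the smaller, while at the dispersion of these sums it did not recover them, and DESeq2 made many calls among genes that had not been changed. A few list members are not reported here by name. Gene coordinates are those of RefSeq on GRCm38.p6.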

Additional observations from a re-analysis of the deposited data

Results flagged for a closer look

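*Pigt* met the rule for a tested difference of the same contrast between the types: the Fezf2 contrast in Pyr←LP minus that in Pyr←ORBvl was -16.58 on the log2 scale (edgeR adjusted p = 0.0284). Its counts were in 6 of 26 undetected and 0 of 18 Fezf2-detected Pyr←LP neurons, and in 6 of 27 detected and 0 of 12 undetected Pyr←ORBvl neurons, with *Pigt* at up to 482 CPM in Pyr←LP. No other result was flagged, the classes being too large for the check of single distant samples.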

How the results depend on the processing

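The test on sums called 0 genes. On simulated sums of the same dispersion it recovered none of the changed genes, so counts of 0 from its variants say nothing about stability. The count was 0 under RLE scaling, no gene filter, filterByExpr, no block, both limma fits, a Fezf2 threshold of 5 counts, neurons with at least 100000 counts, thinning, both other exclusions and each of the 10 fits without 1 prefix. Neurons as replicates gave 1 gene without a block, 9 with a prefix block and 6 with total counts and detected genes as covariates; DESeq2 gave 168 on sums and 3 on neurons. The median log2 fold change of all genes was 0.03, 0.09 under RLE scaling, and over all alternatives lay between -0.18 (without prefix 830) and 1.63 (limma on log2(CPM + 0.1)). The interaction called 1 gene, 2 at a Fezf2 threshold of 5 counts and 250 with neurons as replicates. Replicate numbers follow accession order and paired nothing; pairing was by prefix, in the block of the fit reported and in the sign-flip tests.

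The difference in detected genes ranged from 1229 to 1865 without 1 prefix; it was 1223 in neurons with at least 100000 counts (exact permutation p = 0.109), an alternative chosen after seeing the data. Thinned, it ranged from 788 to 1482. Total counts differed by 0.46 (log10) at a Fezf2 threshold of 5 counts (exact permutation p = 0.0469). Without 1 prefix the astrocyte sum ranged from -0.36 to 0.11, the oligodendrocyte sum from -0.51 to 0.33 and the interneuron sum from -0.80 to 0.64, all changing sign, and the microglial and vessel sum from 0.66 to 1.79. Total counts ranged from 0.06 to 0.42. Sides of the threshold are those of the unadjusted p.

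*Tubb6* turned to -0.25 and *Malat1* to 0.16 with the covariates. *Slc30a3* turned to 0.60 with neurons as replicates, 0.76 with a prefix block on neurons, 0.31 with the covariates, 0.14 with DESeq2 on sums, 0.92 with DESeq2 on neurons, 0.18 without the block, 1.5 and 2.46 with limma at pseudocounts of 1 and 0.1, and ranged from -0.80 to 0.26 without 1 prefix. *Deptor* turned to 0.64, 0.91, 1.82 and 0.44 under the first 4 of these, 1.00 and 1.63 with limma, and ranged from -1.29 to 0.38 without 1 prefix. Other folds kept their sign but shrank on sums without the block, *Cd164* from -7.01 to -0.20, *Sde2* from 6.87 to 0.53 and *Zscan18* from -6.80 to -0.99. The cause was not tested for any of these changes. *Etv1* stayed positive in the 25 alternatives in which it was tested. Its log2 fold change, 4.65 in the main fit, was 2.61 on sums without the block. It lay between 2.21 (DESeq2 on neurons) and 6.16 (limma on log2(CPM + 0.1)).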
